A study of Mus musculus with 21 samples.

Results

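The 43 genes described here encode the machinery that copies DNA in S phase: the proteins that license origins (Orc1, Orc6, Cdc6, Cdt1, Gmnn), the MCM2-7 helicase, the factors that activate it (Cdc45, Gins1 to Gins4, Mcm10), the polymerases and primase, the sliding clamp Pcna and its loader Rfc1 to Rfc5, the proteins that bind and join strands (Rpa1, Rpa2, Fen1, Lig1), the enzymes that supply nucleotides (Tyms, Rrm1, Rrm2, Tk1), the fork protection pair Timeless and Tipin, and Chaf1a, Chaf1b and Uhrf1, which act on chromatin behind the fork. They were chosen by symbol. Each symbol matched 1 Ensembl identifier, so the list holds 43 of the 45706 genes in each count table, and all 43 passed the filter on low counts that left 19555 genes for testing.

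Origins are licensed in G1 when ORC, Cdc6 and Cdt1 load the MCM2-7 ring, and the ring becomes an active helicase in S phase when Cdc45 and the GINS complex join it. Most of these genes are transcribed together at the G1/S boundary by E2F factors, so their summed mRNA is widely read as a sign of how many cells of a population are in or near S phase. In blood formation, committed progenitors and erythroblasts divide often, long-term stem cells divide rarely, and mature granulocytes do not divide.

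mRNA was sequenced from 3 cell fractions of a mouse model of juvenile myelomonocytic leukemia: bone marrow (BM) LSK cells (lineage negative, Sca1+ cKit+ stem and progenitor cells), BM myeloid cells enriched for CD11b, and splenic CD11b+ cells. Each fraction had 2 libraries of MxCre controls, 2 of Ptpn11D61Y/+ controls and 3 of terminally ill MxCre;Ptpn11D61Y/+ mice, called stage 3 (S3). All mice received poly I:C, which switches on the interferon-inducible Mx1 promoter that drives Cre, so that S3 mice express the SHP2 D61Y mutant from its own locus in blood cells and in any other tissue that responds, MxCre mice express Cre without the mutant allele, and Ptpn11D61Y/+ mice carry the allele silenced by a Neo-Stop cassette and no Cre. By the paper, Ptpn11D61Y/+ mice thus have a single functional Ptpn11 allele, which it likens to a heterozygous knockout. S3 animals 540 and 815 gave all 3 fractions by their labels, animal 640 both CD11b+ fractions and animal 768 LSK cells. CD11b+ cells were enriched on magnetic columns and not sorted to purity. Ages are not given in the labels. The labels do not say that the numbered control libraries of a fraction are separate animals, so p-values measure the spread between libraries. Total counts ran from 34992610 to 104509425 per library.

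Some libraries stood apart before any comparison was made. Among genes well detected in the fraction (median CPM of 2 or more, CPM being counts relative to the library size, which TMM adjusts in all gene values that follow), BM CD11b+ MxCre 1 had 190 of 10714 at a count of 0, spleen CD11b+ MxCre 1 102 of 10931, and BM CD11b+ S3 815 59 of 10714. These 3 libraries had the fewest genes detected. In 3 further libraries both the female transcript Xist and the Y-linked gene Ddx3y had 173 or more counts: 2834 and 353 counts in BM CD11b+ MxCre 2, 2780 and 173 in BM CD11b+ S3 540, and 712 and 1275 in spleen CD11b+ S3 540. Every other library had at most 17 counts of 1 of the 2 genes. The LSK library of animal 540 had 1 count of Xist and 5083 of Ddx3y, so the libraries labelled 540 do not read as 1 animal. The S3 against MxCre comparisons in CD11b+ cells are given with and without these libraries. The group levels, the comparisons between fractions and the lists of other genes use all libraries unless a value without one is given.

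Marker genes differed between the labelled fractions. The summed CPM of a list of stem and progenitor genes, Kit and Ly6a (Sca1) among them, was at least 1351 in the LSK libraries. It was at most 542 in the CD11b+ libraries. The stem cell transcription factor Hlf was at 164 and 159.6 CPM in the MxCre LSK libraries, and its highest value in a CD11b+ library was 3.34 CPM. Itgam, which encodes CD11b, was between 151 and 1665 CPM in the CD11b+ libraries and between 31.6 and 114 CPM in the LSK libraries. The CD11b+ libraries also held erythroid mRNA: the summed CPM of the erythroid list was 50172 and 224822 in the BM CD11b+ MxCre libraries. In bulk RNA, fewer cells of a type and less RNA per cell cannot be told apart.

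The promoters of the list were searched for E2F motifs, the letters TTTCCCGC, TTTGGCGC, TTTCGCGC and TTTGCCGC on either strand, overlapping matches included, in the RefSeq window of 250 bases before to 50 bases after the start (GRCm38.p6). A window was given for 34 of the 43 genes, and 14 of these (41.2%) held at least 1 match, against 704 of 27025 genes with a window (2.60%). At least 2 matches were found in 5 of the genes and in 0.107% of all genes. The letters CCAAT or their reverse complement were in 21 of the 34 windows and in 41.1% of all. The windows of the list were richer in G and C, with a median of 58.3% against 52.7% over all windows. The shares were not matched for this. A match is a string of letters and not a measured binding site. The 5 windows with at least 2 matches are shown because they carry the E2F letters most densely, with the matches in capitals, 5′ to 3′ along the gene: Mcm3 (chr1:20820263-20820562, minus strand), Mcm5 (chr8:75109259-75109558, plus strand), Mcm6 (chr1:128359656-128359955, minus strand), Mcm7 (chr5:138171834-138172133, minus strand) and Rfc3 (chr5:151651159-151651458, minus strand).
Mcm3: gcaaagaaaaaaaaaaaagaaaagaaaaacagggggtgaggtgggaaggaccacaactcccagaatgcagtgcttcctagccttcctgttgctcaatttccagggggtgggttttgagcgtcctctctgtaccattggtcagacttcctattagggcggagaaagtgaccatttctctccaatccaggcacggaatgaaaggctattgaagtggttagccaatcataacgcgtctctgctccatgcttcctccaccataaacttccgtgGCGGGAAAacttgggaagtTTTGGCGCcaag
Mcm5: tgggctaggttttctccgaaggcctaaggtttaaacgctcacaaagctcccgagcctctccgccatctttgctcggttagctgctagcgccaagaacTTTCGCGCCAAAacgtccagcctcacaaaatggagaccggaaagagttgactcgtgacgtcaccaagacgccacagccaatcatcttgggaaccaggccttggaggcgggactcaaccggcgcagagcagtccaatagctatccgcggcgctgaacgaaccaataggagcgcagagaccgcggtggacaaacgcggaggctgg
Mcm6: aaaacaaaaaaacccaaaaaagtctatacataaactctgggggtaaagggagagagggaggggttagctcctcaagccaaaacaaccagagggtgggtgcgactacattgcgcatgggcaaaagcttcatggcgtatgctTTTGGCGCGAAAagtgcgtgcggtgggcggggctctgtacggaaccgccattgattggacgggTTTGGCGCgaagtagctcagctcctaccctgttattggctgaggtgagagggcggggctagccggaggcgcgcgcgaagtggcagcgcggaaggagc
Mcm7: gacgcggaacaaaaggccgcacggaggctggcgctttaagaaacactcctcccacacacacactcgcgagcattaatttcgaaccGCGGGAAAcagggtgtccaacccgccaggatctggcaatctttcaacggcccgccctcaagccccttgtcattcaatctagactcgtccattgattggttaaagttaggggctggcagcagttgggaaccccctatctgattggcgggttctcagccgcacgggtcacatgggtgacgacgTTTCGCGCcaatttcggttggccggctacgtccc
Rfc3: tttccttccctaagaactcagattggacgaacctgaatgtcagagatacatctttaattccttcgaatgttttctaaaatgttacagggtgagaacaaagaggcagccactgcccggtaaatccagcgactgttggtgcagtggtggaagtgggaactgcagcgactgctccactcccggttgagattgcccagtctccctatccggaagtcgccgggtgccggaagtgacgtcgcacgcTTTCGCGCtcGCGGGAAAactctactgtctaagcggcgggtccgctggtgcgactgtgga
Of these 5, 4 encode subunits of the MCM2-7 ring. The adjoining matches of Mcm5 overlap each other, as do the first pair of Mcm6. Single matches were found in Orc1, Cdc6, Cdt1, Gins3, Pola1, Pold1, Pole2, Lig1 and Uhrf1. Rrm2 and Chaf1b, which are described below for their values, held none of these letters in the window. The window given for Timeless, counted among the 34, lies inside the annotated gene and is not read here. Those of a few others start from a RefSeq transcript that begins inside the longest annotated gene. Among them are the windows with the matches of Mcm7, Cdc6, Lig1 and Uhrf1, which are counted.

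Per exon length, the list spanned a wide range of levels. CPM per kilobase of exon (RPKM) placed the clamp Pcna first, at 96.0 ± 15.3 in LSK, 140.4 ± 49.4 in BM and 84.7 ± 17.0 in spleen (mean ± SD over the 7 libraries of each fraction, all genotypes). Rrm2, the regulated subunit of ribonucleotide reductase, came second, with a level of 35.2 ± 10.5, 149 ± 79.8 and 40.9 ± 37.1 RPKM in the same order. Mcm5 followed at 77.6 ± 17.3, 63.8 ± 26.1 and 29.8 ± 18.7 RPKM. The order of the leading genes thus changed with the fraction: Mcm6 was at 89.4 ± 16.5 RPKM in LSK cells, close to Pcna, but at 35.5 ± 17.7 in BM CD11b+ cells, where Rrm2 and Pcna both lay far above it. In GRCm38, Pcna lies at chr2:132249162-132253314 (minus strand), Rrm2 at chr12:24708241-24714146 (plus), Mcm5 at chr8:75109569-75128439 (plus), Timeless at chr10:128232065-128252941 (plus) and Chaf1b at chr16:93883901-93906115 (plus). The lowest 2 genes were Orc1, the largest subunit of the origin recognition complex, at a mean of 2.80 RPKM over all libraries, and the flap nuclease gene Fen1, at 0.971. Fen1 overlaps Gm10143 and Tmem258 on the other strand, and the use of strand in counting is not given in the sources used here, so its count is uncertain. In all, 16 of the 43 genes are overlapped by a gene on the other strand, among them Rfc4 (Eif4a2), Rfc2 (Lat2), Rfc5 (Wsb2), Chaf1a (Ubxn6), Cdc45 (Ufd1), Tk1 (Afmid), Lig1 (Zswim9), Pola1 (Gm14780), Pole (Gm15792) and Timeless (Gm26847). Their values carry the same uncertainty, since reads of the partner gene could be counted with them. Mcm7 holds Mir25, Mir93 and Mir106b, and Pcna and Tyms have named pseudogenes whose reads could be split.

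The mean log2 CPM of the 43 genes, used as the level of the list, was highest in S3 LSK cells (6.36 ± 0.0797, SD, n = 3). It was 6.29 ± 0.109 (n = 2) in BM CD11b+ Ptpn11D61Y/+ cells, 6.02 ± 0.0904 (n = 2) in LSK MxCre cells and 5.88 ± 0.0119 (n = 2) in LSK Ptpn11D61Y/+ cells. BM CD11b+ S3 cells were at 5.77 ± 0.442 (n = 3), spleen CD11b+ S3 cells at 5.32 ± 0.631 (n = 3), and BM CD11b+ MxCre cells at 4.97 ± 1.85 (n = 2). The lowest levels were those of spleen CD11b+ Ptpn11D61Y/+ cells (4.56 ± 0.142, n = 2) and spleen CD11b+ MxCre cells (4.11 ± 0.0949, n = 2). S3 LSK cells and BM CD11b+ Ptpn11D61Y/+ cells differed by less than the SD of the latter, and BM CD11b+ S3 cells, spleen CD11b+ S3 cells and BM CD11b+ MxCre cells did not differ beyond their spread. The order between fractions depended on the scale. As a share of all counts, without TMM, the list held 0.431% and 0.413% in the BM CD11b+ Ptpn11D61Y/+ libraries. It held more in LSK cells, at 0.630% and 0.695% in MxCre and 0.588% and 0.577% in Ptpn11D61Y/+ libraries.

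**Figure D1:**
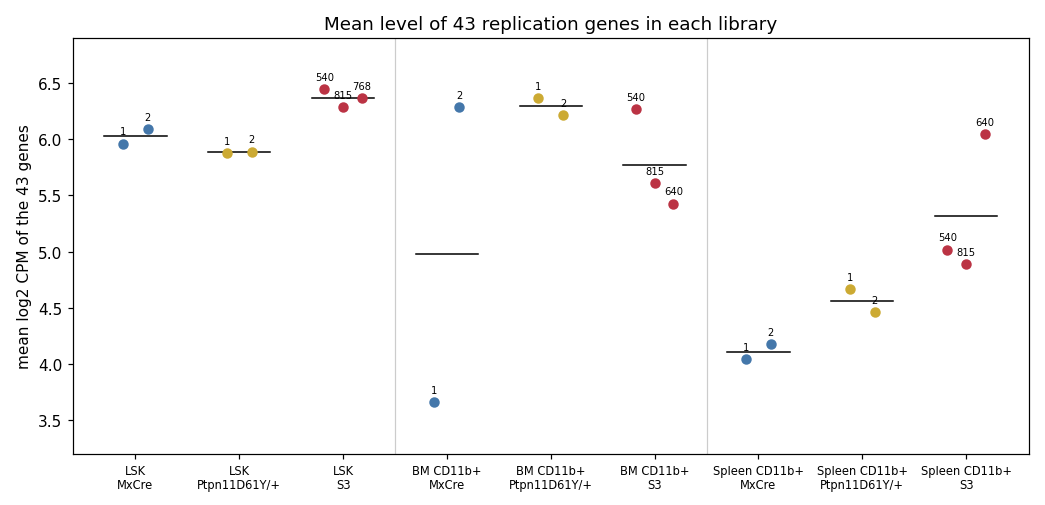
Mean log2 CPM of the 43 replication genes (y axis) in each of the 21 libraries (points, labelled with the replicate or animal number), by fraction and genotype (x axis), with horizontal lines for group means. The 3 S3 LSK libraries lie above the 4 control LSK libraries, BM CD11b+ MxCre 1 and 2 lie at 3.66 and 6.29, and spleen CD11b+ S3 640 lies at 6.04 above all other spleen libraries.

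The spread between libraries of a group differed by fraction. The list held 0.630% and 0.695% of all counts in the LSK MxCre libraries, but 0.0823% and 0.425% in the BM CD11b+ MxCre libraries. All 43 genes were lower in BM CD11b+ MxCre 1 than in MxCre 2, and 41 had their lowest value of the fraction there. Spleen CD11b+ S3 640 had the highest value of the fraction for 36 genes, and animal 815 for the other 7. In LSK cells, S3 540 was highest for 30 genes and S3 768 for 12. The heat map of all genes and libraries shows these columns as blocks that cut across the roles.

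**Figure D2:**
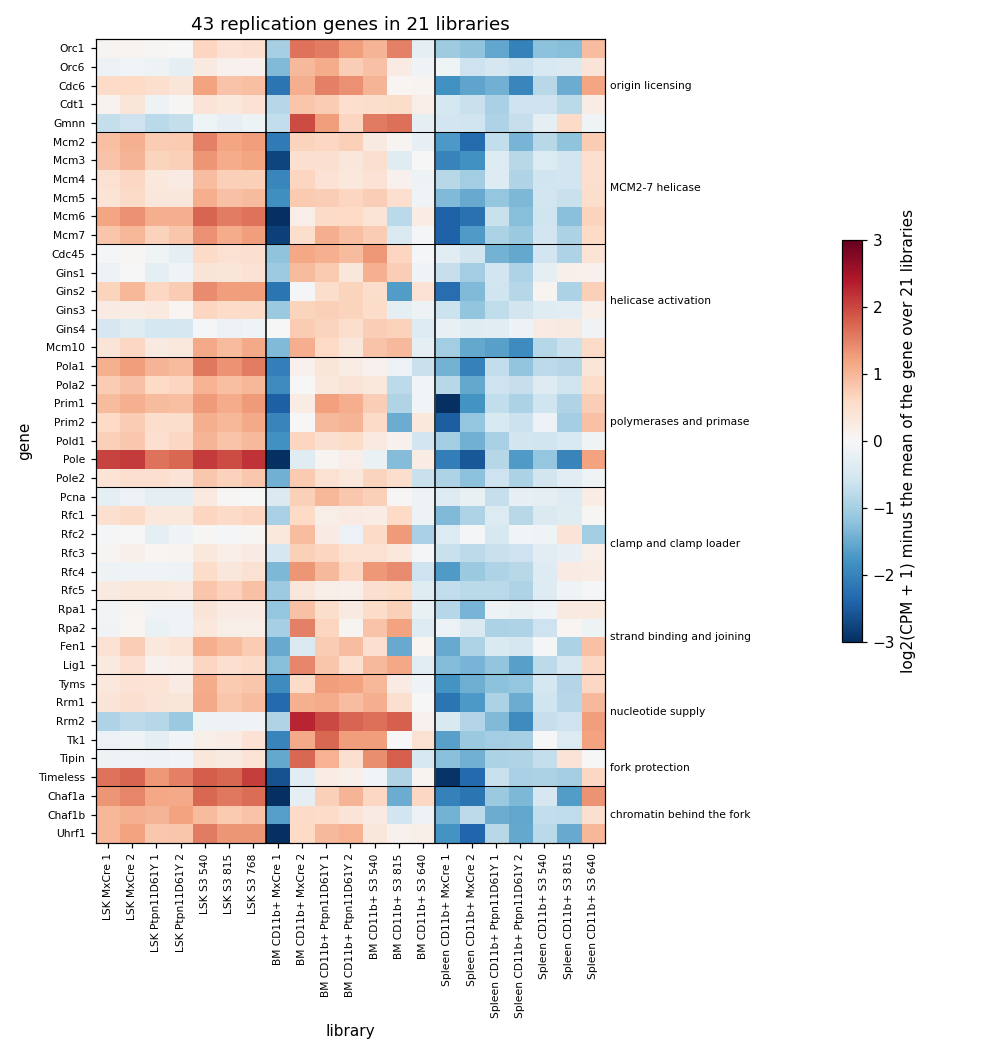
Level of each gene (rows, grouped by role) in each library (columns, grouped by fraction), as log2(CPM + 1) minus the mean of the gene over the 21 libraries, with colour clipped at 3 in either direction. BM CD11b+ MxCre 1 and both spleen CD11b+ MxCre libraries form blue columns in the MCM2-7 and polymerase genes, and Rrm2, Gmnn and Tipin are redder in BM CD11b+ MxCre 2, both Ptpn11D61Y/+ libraries, S3 540 and S3 815 than in any LSK library.

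The first comparison asked how the list differs between S3 and MxCre LSK cells. The control LSK libraries of both genotypes held 4619 to 7357 counts of Ddx3y and at most 17 of Xist. S3 815 and S3 768 held 39460 and 88850 counts of Xist and 0 of Ddx3y, while S3 540 held 5083 of Ddx3y. Sex was thus partly confounded with genotype against either LSK control, and its part was not tested. In LSK cells the log2 fold changes of nearly the whole list were small and above 0, from near 0 for Pole to 0.72 for Rrm2, with Chaf1b below 0. The log2 fold change was above 0 for 42 of the 43 genes with a median of 0.34, against a median of 0.01 over all 19555 genes, and in 38 genes all S3 values exceeded all MxCre values, which held for 29.1% of all genes. The nucleotide supply genes and the helicase activators had the largest role medians, 0.54 over 4 genes and 0.50 over 6, and the polymerases and primase had 0.22 over 7.

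Rrm2 was at 74.4 and 81.3 CPM in the MxCre, 77.7 and 64.9 in the Ptpn11D61Y/+ and 127, 128 and 130.5 in the S3 LSK libraries (animals 540, 815 and 768). The S3 libraries lay close together and above all 4 controls. Mcm10, which helps to start unwinding, was at 45.8 and 54.0 CPM in MxCre, 42.0 and 43.5 in Ptpn11D61Y/+ and 76.8, 68.2 and 77.6 in S3 libraries. Rfc4, a subunit of the clamp loader, was at 19.6 and 19.99 CPM in MxCre, 20.02 and 19.6 in Ptpn11D61Y/+ and 32.7, 28.2 and 30.7 in S3 libraries. Neither gene overlapped between S3 and control libraries. Mcm5 was at 257 and 288 CPM in MxCre, 243 and 242 in Ptpn11D61Y/+ and 413, 354 and 372 in S3 libraries, and Pcna at 203 and 214 CPM in MxCre, 203 and 197 in Ptpn11D61Y/+ and 298, 249 and 247 in S3 libraries. These genes were higher in S3 libraries too, without overlap. Uhrf1, which reads hemimethylated DNA after replication, was at 241 and 278 CPM in MxCre, 212 and 215 in Ptpn11D61Y/+ and 357, 301 and 300.5 in S3 libraries.

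The lowest log2 fold changes were those of Chaf1b, which alone was below 0, and of Pole and Rfc2, which were near 0. Chaf1b, a subunit of the chromatin assembly factor that deposits histones on new DNA, was at 62.7 and 66.4 CPM in MxCre, 63.6 and 73.3 in Ptpn11D61Y/+ and 60.6, 53.8 and 57.0 in S3 libraries, lower in each S3 library than in each control. Its partner Chaf1a went the other way, at 68.1 and 75.6 CPM in MxCre, 60.8 and 60.2 in Ptpn11D61Y/+ and 91.1, 81.3 and 87.5 in S3 libraries. Pole, the catalytic subunit of polymerase epsilon, was at 105 and 110.4 CPM in MxCre, 79.0 and 85.4 in Ptpn11D61Y/+ and 110.3, 99.8 and 117 in S3 libraries, so that S3 and MxCre overlapped and the Ptpn11D61Y/+ libraries were lowest. Rfc2 was at 146 and 152 CPM in MxCre, 127 and 139.8 in Ptpn11D61Y/+ and 157, 148 and 156 in S3 libraries, with S3 and MxCre overlapping.

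Whether these differences passed the test depended on which libraries set the spread. In the fit of all 21 libraries, which shared 1 estimate of the spread per gene, edgeR called none of the 43 genes between S3 and MxCre LSK cells, none had an unadjusted p under 0.05 (3.97% of all genes had), and DESeq2 and limma-voom called none either. Of all genes 0.0307% were called by edgeR. In a fit of the 5 LSK libraries compared, edgeR called 22 of the 43 genes, all higher in S3, against 23.2% of all genes called in either direction and 12.3% called higher. There Rrm2 had a log2 fold change of 0.72 ± 0.07 (SE, edgeR adjusted p = 0.0046), Mcm10 of 0.57 ± 0.10 (edgeR adjusted p = 0.011) and Chaf1b of -0.18 ± 0.08 (edgeR adjusted p = 0.15). The count of 22 became 0 without MxCre 1 and 0 without MxCre 2 (0.0153% and 0.0409% of all genes called), while it was 22 without S3 540 (28.4%), 16 without S3 815 (19.0%) and 15 without S3 768 (18.4%).

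The Ptpn11D61Y/+ LSK libraries served as a second control for the same 3 S3 libraries. The log2 fold change was above 0 in 42 of 43 genes with a median of 0.50, every S3 library lay above both controls in 42 genes (32.0% of all genes), and Chaf1b was again the exception. The fit of all libraries called none by edgeR (0.0972% of all genes called), none at an unadjusted p under 0.05 (5.74% of all genes), and none by DESeq2 or limma-voom. The fit of these 5 LSK libraries called 37 of 43, 36 of them higher and Chaf1b lower (26.4% of all genes, 11.8% higher). Mcm10 had the lowest adjusted p there, with a log2 fold change of 0.73 ± 0.08 (edgeR adjusted p = 0.005), and Rrm2 had 0.78 ± 0.09 (edgeR adjusted p = 0.0061). This count too became 0 without either control library (0.0153% and 0.0665% of all genes called) and was between 32 and 36 without any of the S3 libraries (19.1% to 29.4%). Between the 2 control genotypes, 39 genes had a log2 fold change below 0 in Ptpn11D61Y/+ against MxCre LSK cells, with a median of -0.16, and 25 were lower in every Ptpn11D61Y/+ library (29.4% of all genes) and none higher in every one. EdgeR, DESeq2 and limma-voom called none, with none at an unadjusted p under 0.05 (0.0614% of all genes called by edgeR and 1.69% under that p). The fit of the 4 control LSK libraries called Pole, lower in Ptpn11D61Y/+ cells, where 13.3% of all genes were called.

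Other genes differed beside the list in LSK cells. The stem cell gene Hlf was lower in each S3 library than in each control: it was at 164 and 159.6 CPM in MxCre, 196 and 198 in Ptpn11D61Y/+ and 91.0, 60.2 and 43.1 in S3 libraries. The summed CPM of 5 promyelocyte genes, of which Mpo is the most abundant, was 2007 and 1629 in MxCre, 2730.4 and 2684 in Ptpn11D61Y/+ and 4923, 4371 and 6102 in S3 libraries. Sums of the mature neutrophil list were 2815 and 2359 CPM in MxCre, 252 and 182 in Ptpn11D61Y/+ and 691, 1444 and 934 in S3 libraries. Those of the erythroid list were 1695 and 945 CPM in MxCre, 248 and 196 in Ptpn11D61Y/+ and 423, 232 and 313 in S3 libraries. The S3 libraries thus held more promyelocyte mRNA and less Hlf mRNA than the controls, and the MxCre libraries held the most neutrophil and erythroid mRNA. T cell sums were 35.3 and 36.7 CPM in MxCre, 18.2 and 22.8 in Ptpn11D61Y/+ and 26.8, 20.7 and 20.1 in S3 libraries, and B cell sums were 145 and 99.6 in MxCre, 73.2 and 108 in Ptpn11D61Y/+ and 78.0, 78.4 and 39.9 in S3 libraries. Monocyte and macrophage sums were 262 and 208 CPM in MxCre, 189.7 and 158 in Ptpn11D61Y/+ and 272, 465 and 617 in S3 libraries. Megakaryocyte and platelet sums were 143 and 149 CPM in MxCre, 296 and 242 in Ptpn11D61Y/+ and 335, 236 and 343 in S3 libraries, and NK cell sums were at most 38.8 CPM. The part of these shifts in the level of the replication genes was not tested.

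**Figure D3:**
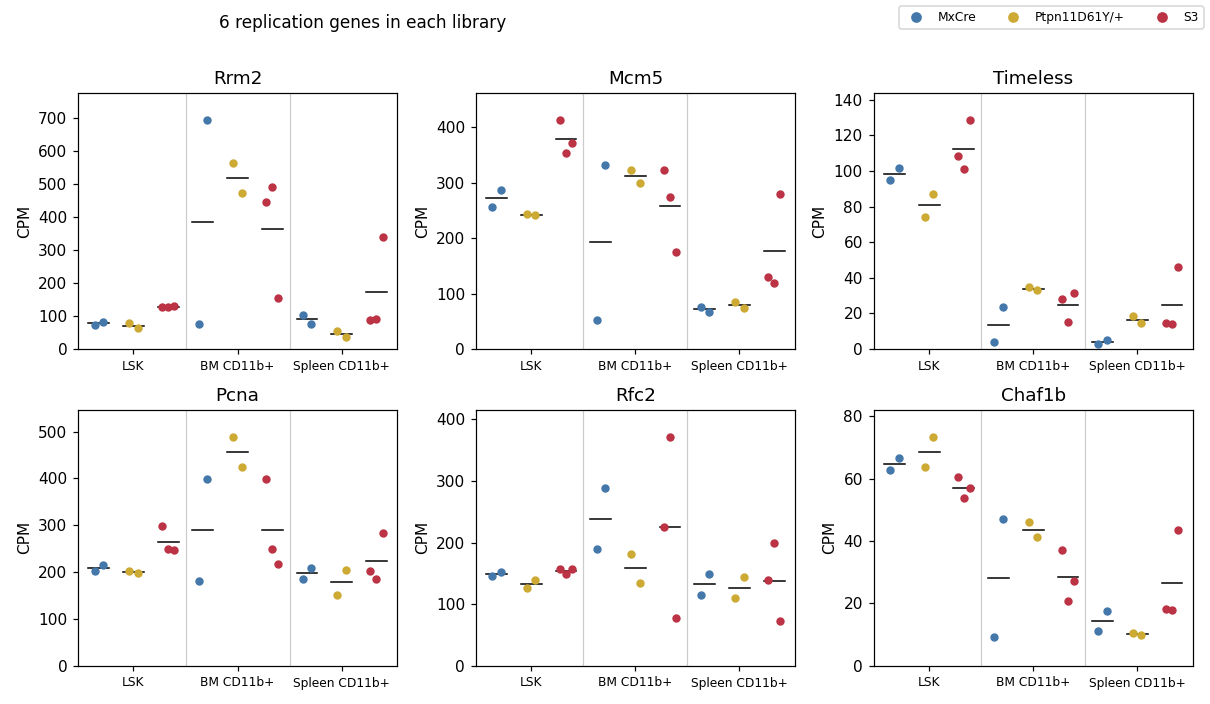
CPM (y axis, from 0) of 6 genes in each library (points coloured by genotype, lines for group means) of the 3 fractions. Rrm2, Mcm5, Pcna and Timeless reach their highest spleen value in animal 640, Rfc2 its lowest spleen value there, and Chaf1b is lower in S3 than in control LSK libraries.

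In the spleen the log2 fold change of S3 against MxCre CD11b+ cells was above 0 in each of the 43 genes. Its median was 1.27, against 0.32 over all genes. In 34 genes all S3 values exceeded all MxCre values, which held for 20.2% of all genes. By role, the genes of chromatin behind the fork had a median of 2.06 over 3 genes, the fork protection pair 1.99 over 2, the MCM2-7 subunits 1.86 over 6, the nucleotide supply genes 1.71 over 4, the polymerases and primase 1.46 over 7 and the clamp and its loader 0.62 over 6.

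Timeless was the 1 gene called. It was at 3.00 and 5.10 CPM in the MxCre, 18.5 and 14.7 in the Ptpn11D61Y/+ and 14.9, 13.9 and 46.2 in the S3 spleen libraries (animals 540, 815 and 640). The S3 libraries lay above MxCre, while animal 540 lay between the Ptpn11D61Y/+ libraries, animal 815 below both and animal 640 above both. The log2 fold change against MxCre was 2.63 ± 0.65 (SE, edgeR adjusted p = 0.034), where 4.19% of all genes were called and 1.51% called higher. Unadjusted p was under 0.05 for 21 of the 43 genes and for 25.3% of all genes. DESeq2 called 15 of the 43 genes, all higher, against 10.8% of all genes higher, and limma-voom and the fit of the 5 spleen libraries compared called none.

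Mcm6, the MCM subunit with the largest difference, was at 28.6 and 32.9 CPM in MxCre, 99.5 and 64.8 in Ptpn11D61Y/+ and 104, 65.3 and 250.2 in S3 spleen libraries, a log2 fold change against MxCre of 2.19 ± 0.72 (edgeR adjusted p = 0.086). Mcm5 was at 76.3 and 67.0 CPM in MxCre, 85.4 and 74.4 in Ptpn11D61Y/+ and 130.1, 120.0 and 279 in S3 libraries, and Chaf1a at 5.79 and 5.06 CPM in MxCre, 11.8 and 9.82 in Ptpn11D61Y/+ and 18.5, 7.64 and 69.0 in S3 libraries. In each of these genes animal 640 was far above the other S3 animals. Rrm2 was at 103 and 76.1 CPM in MxCre, 56.0 and 37.4 in Ptpn11D61Y/+ and 87.9, 91.2 and 341 in S3 libraries, and its S3 and MxCre values overlapped. Lig1, which seals the lagging strand, was at 56.4 and 52.8 CPM in MxCre, 61.1 and 44.8 in Ptpn11D61Y/+ and 81.3, 98.3 and 215 in S3 libraries. Among the genes with the smallest differences, Rfc2 was at 115 and 149 CPM in MxCre and 138, 199 and 73.1 in S3 libraries, and Rpa2, a subunit of the single-strand binding protein, at 62.5 and 51.6 in MxCre and 45.5, 73.5 and 63.4 in S3 libraries. Pcna was at 185 and 209 CPM in MxCre and 201, 186 and 284 in S3 libraries. These 3 overlapped between the groups. Fen1 had 0 and 24 counts in the MxCre and 115, 24 and 360 in the S3 libraries, and no fold is given for it.

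Without S3 640 the median log2 fold change of the list was 0.80, 37 genes were above 0 and edgeR called none (2.47% of all genes). Without MxCre 1 or without MxCre 2 none was called either (1.98% and 3.66% of all genes), with medians of 1.37 and 1.16. Timeless had a log2 fold change of 1.83, 2.29 and 3.06 in these 3 fits. Without the 3 libraries with the fewest genes detected, which include spleen MxCre 1, edgeR called 5 of the 43, all higher (2.82% of all genes higher), with a median of 1.37, and without the 3 libraries with both Xist and Ddx3y, which include spleen S3 540, it called 13, all higher (3.09% of all genes higher), with a median of 1.48. Animal 640 also stood apart in erythroid mRNA, with the band 3 gene Slc4a1 at 142, 79.1 and 3265 CPM in the S3 spleen libraries and 9.78 and 3.88 in MxCre. Summed erythroid CPM was 3489 and 1187 in MxCre and 14702, 16012 and 30375 in S3 libraries. B cell sums were 221 and 96.8 CPM in MxCre and 893, 801 and 83.4 in S3 libraries, and mature neutrophil sums 68629.5 and 128652 in MxCre and 94311, 43437 and 41284 in S3 libraries. All 3 S3 libraries held more erythroid mRNA than either MxCre library, and the part of this in the level of the list was not tested.

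Against the Ptpn11D61Y/+ spleen libraries, which shared the S3 libraries, all 43 genes had a log2 fold change above 0 with a median of 0.83. Every S3 library lay above both controls in 23 genes, as in 9.5% of all genes. Every S3 library lay below both controls in none of the list and in 12.2% of all genes. None was called by edgeR, DESeq2 or limma-voom (0.00511% of all genes by edgeR), and 8 had an unadjusted p under 0.05, as did 8.88% of all genes. Without S3 640 the median was 0.37. Between the control genotypes, the median of Ptpn11D61Y/+ against MxCre was 0.35. In every Ptpn11D61Y/+ library 22 genes were higher and 8 lower (34.5% and 21.4% of all genes). EdgeR called none of the list, with 2 at an unadjusted p under 0.05, while DESeq2 called 1 and limma-voom none. Of all genes 5.11% were called by edgeR, 24.7% had an unadjusted p under 0.05 and 18.1% were called by DESeq2. The list thus passed these edgeR and DESeq2 thresholds less often than all genes did. Mature neutrophil sums were 4489 and 8301 CPM in the Ptpn11D61Y/+ spleen libraries, below those of MxCre, and B cell sums were 1433 and 2024 CPM, above them. Erythroid sums were 5213 and 1189 CPM, and all 13 erythroid genes were higher in S3 than in Ptpn11D61Y/+ cells at an unadjusted p under 0.05, with a median log2 fold change of 3.01 and none called by edgeR. The part of these lists in the level of the replication genes was not tested.

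**Figure D4:**
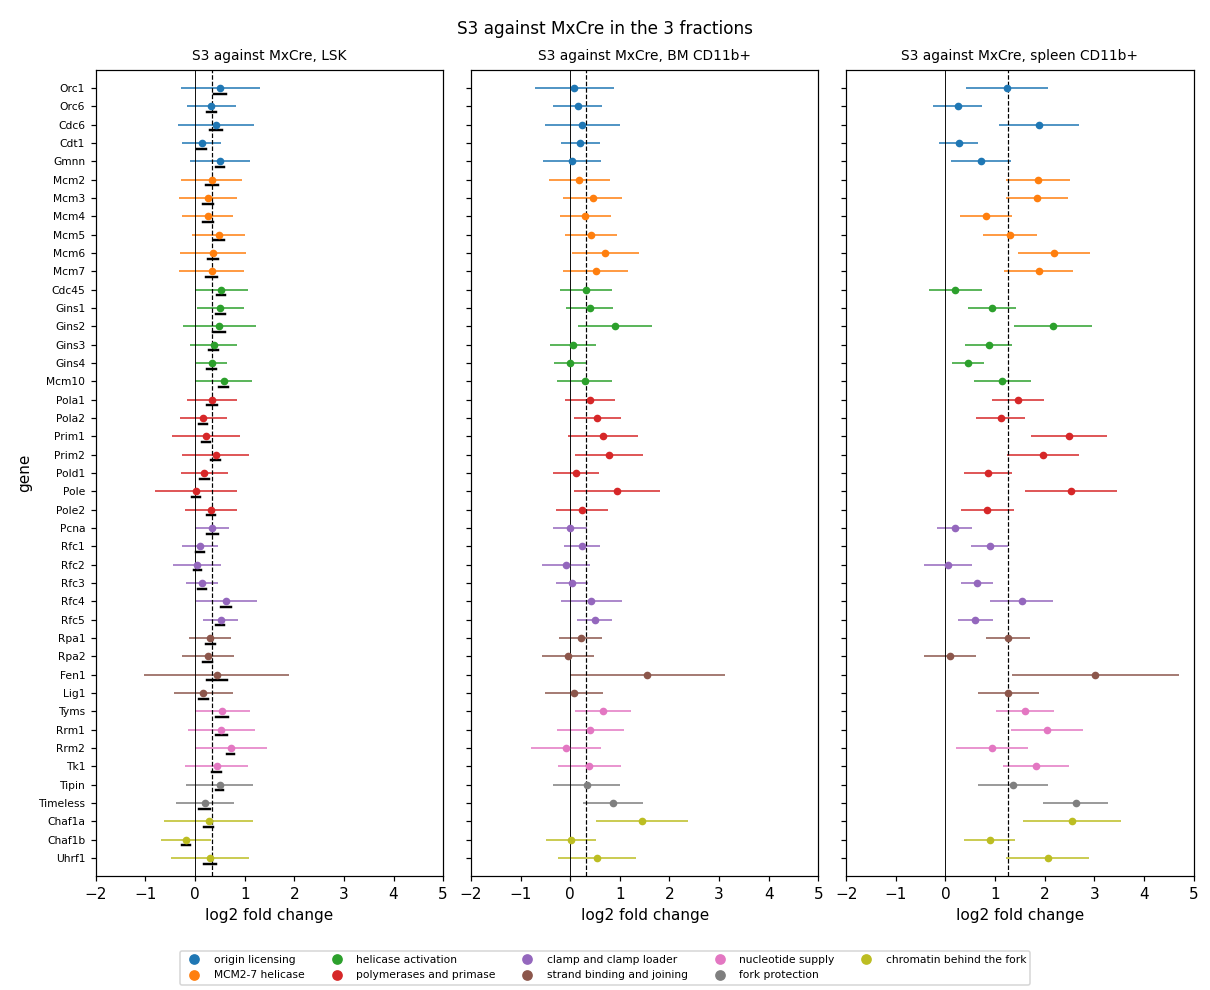
Log2 fold change of S3 against MxCre for each gene (rows, coloured by role) in LSK, BM CD11b+ and spleen CD11b+ cells (panels), with coloured bars for the SE of the fit of 21 libraries, black bars in the LSK panel for the SE of the fit of the 5 LSK libraries compared, and dashed lines for the medians of 0.34, 0.32 and 1.27. The LSK values lie between -0.18 and 0.72, while the spleen values spread from Rfc2 at 0.05 to Timeless at 2.63, with the uncertain value of Fen1 beyond it.

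In BM CD11b+ cells the 2 MxCre libraries were so far apart that no direction could be given. The median log2 fold change of S3 against MxCre was 0.32, against 0.18 over all genes, with 38 of 43 genes above 0. No gene had all its S3 values above or all below both MxCre values (5.74% and 5.49% of all genes did). EdgeR, DESeq2 and limma-voom called none of the list, none had an unadjusted p under 0.05 (15.5% of all genes had), and edgeR called 0.0% of all genes.

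Mcm5 was at 52.9 and 333 CPM in the MxCre, 323 and 300.4 in the Ptpn11D61Y/+ and 324, 275 and 176 in the S3 BM libraries (animals 540, 815 and 640), and Rrm2 at 75.5 and 693 CPM in MxCre, 565 and 474 in Ptpn11D61Y/+ and 445, 491 and 154 in S3 libraries. In both genes MxCre 1 was the lowest and MxCre 2 the highest library of the fraction. Chaf1a was at 1.08 and 21.6 CPM in MxCre, 44.6 and 54.8 in Ptpn11D61Y/+ and 41.8, 8.81 and 41.9 in S3 libraries, and Rpa2 at 35.1 and 203 CPM in MxCre, 110.4 and 75.2 in Ptpn11D61Y/+ and 129, 164 and 53.5 in S3 libraries. Rfc2, at 189.6 and 288 CPM in MxCre and 226, 371 and 77.5 in S3 libraries, had its highest value in animal 815 and its lowest in animal 640. Fen1 was at 0 counts in MxCre 1 and in S3 815.

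Without MxCre 1 the median was -0.41 with 6 genes above 0 and none called, and without MxCre 2 it was 2.15 with 43 above 0 and 29 called higher, where 5.94% of all genes were called higher. Without the 3 libraries with both Xist and Ddx3y, which include MxCre 2, edgeR called 13 genes, all higher (3.46% of all genes higher), with a median of 1.91, and without the 3 libraries with the fewest genes detected, which include MxCre 1 and S3 815, none with a median of -0.46. A single remaining MxCre library was assumed there to vary like the other groups. The sign of the comparison was thus set by which MxCre library was used. The 2 libraries differed in cell content too: summed promyelocyte CPM was 726 and 4572, erythroid CPM was 50172 and 224822, and monocyte and macrophage CPM was 13976 and 1584. MxCre 1 held less of the first pair and more of the last, and the part of this was not tested.

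Against the Ptpn11D61Y/+ BM libraries, which were close to each other, most genes had a log2 fold change below 0 in S3, and none passed a test. The median was -0.46 with 10 genes above 0. In every S3 library 18 genes were lower (18.2% of all genes) and none higher (7.9% of all genes), so all genes leaned the same way. EdgeR called none of the list and 0.0% of all genes, none of the list had an unadjusted p under 0.05 (8.22% of all genes had), and DESeq2 and limma-voom called none. The median was -0.68 with 6 genes above 0 without S3 540, -0.27 with 1 above 0 without S3 815 and -0.29 with 13 above 0 without S3 640, and edgeR called none in each. Summed CPM of the list was 5671 and 5019 in the Ptpn11D61Y/+ and 5219, 4418 and 2859.7 in the S3 libraries, and summed erythroid CPM was 163130.0 and 163528 and 68999, 125879 and 14897. Each S3 library was below both controls in erythroid mRNA, and the part of this in the level of the list was not tested. Ptpn11D61Y/+ against MxCre had a median of 0.65 and none called by edgeR, DESeq2 or limma-voom (0.0% of all genes by edgeR), with 3 at an unadjusted p under 0.05 (22.6% of all genes). Every Ptpn11D61Y/+ library was higher in 17 genes and lower in 1, as in 38.7% and 18.8% of all genes. Without MxCre 2 edgeR called 36 there, all higher (9.38% of all genes higher), and without MxCre 1 none with a median of -0.10.

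The difference between the fractions in the S3 against MxCre contrast was tested directly. The spleen value exceeded the LSK value in 39 of 43 genes, with a median difference of 0.91 on the log2 scale, but edgeR, DESeq2 and limma-voom called none and 2 had an unadjusted p under 0.05 (0.00511% of all genes called by edgeR and 13.4% under that p). For Timeless the difference was 2.43 ± 0.84 (edgeR adjusted p = 0.26), and for Rrm2, with the largest LSK value, it was 0.23 ± 1.0 (edgeR adjusted p = 0.95). BM CD11b+ minus LSK had a median of -0.07 and none called by any of the 3 tools, with none at an unadjusted p under 0.05 (8.12% of all genes). Spleen minus BM CD11b+ had a median of 1.03 and none called by any, with 1 at an unadjusted p under 0.05 (10.7% of all genes). EdgeR called 0.0% of all genes in both. Without MxCre 2 of the BM the median of BM minus LSK was 1.79 and that of spleen minus BM -0.91. With other libraries left out 1 at a time these medians reached -0.74 and 1.75. The larger spleen values are thus not shown to differ from the LSK values at this spread. These fits held no term for the animal, though S3 animals were shared between fractions by their labels.

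Between fractions the comparisons are described by role, with no test between roles. In MxCre mice, spleen CD11b+ cells had lower levels than LSK cells in 40 of 43 genes with a median log2 fold change of -1.76, and edgeR called 25, all lower, against 41.6% of all genes called in either direction and 22.4% called lower. An unadjusted p under 0.05 was found for 28 of the 43 and for 51.6% of all genes. All 6 MCM2-7 subunits, all 7 polymerase and primase genes and all 3 chromatin genes were called, but 1 of 5 licensing genes (Cdc6), 2 of 6 clamp and loader genes (Rfc1 and Rfc5) and 2 of 4 nucleotide supply genes (Tyms and Rrm1). Pola1, the catalytic subunit of the polymerase that primes each strand, was at 73.2 and 82.5 CPM in LSK and 12.2 and 7.61 in spleen CD11b+ MxCre libraries (log2 fold change -2.98 ± 0.59, edgeR adjusted p = 0.0016). Timeless was at 94.7 and 102 and 3.00 and 5.10 CPM (-4.60 ± 0.74, edgeR adjusted p = 0.00036), the largest drop but for Pole. The 3 genes above 0 were Rrm2, at 74.4 and 81.3 CPM in LSK and 103 and 76.1 in spleen libraries, Gins4, a GINS subunit, at 23.9 and 26.5 CPM in LSK and 29.3 and 26.5 in spleen, and the Cdt1 inhibitor Gmnn, at 26.5 and 28.4 in LSK and 29.0 and 28.8 in spleen. Pcna, at 203 and 214 CPM in LSK and 185 and 209 in spleen libraries, was just below 0. Without any of the 4 libraries in turn between 9 and 17 genes were called, where 21.7% to 31.2% of all genes were called.

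In BM CD11b+ MxCre cells against LSK cells both directions occurred. EdgeR called 6 genes (36.9% of all genes, 16.6% higher and 20.3% lower): Rrm2 and Gmnn were higher and Timeless, Pola2, Pole and Pola1 lower. Unadjusted p was under 0.05 for 11 of the 43 and 49.2% of all genes. Gmnn was at 26.5 and 28.4 CPM in LSK and 25.7 and 172 in BM CD11b+ libraries (log2 fold change 1.85 ± 0.67, edgeR adjusted p = 0.040), and Rrm2 had 2.30 ± 0.81 (edgeR adjusted p = 0.036). For both genes the excess came from MxCre 2, since MxCre 1 was within the LSK values or below them, and without MxCre 2 the log2 fold changes were -0.045 for Rrm2 and -0.093 for Gmnn. Pole was at 105 and 110.4 CPM in LSK and 1.79 and 19.3 in BM CD11b+ libraries, with no overlap (-3.35 ± 1.0, edgeR adjusted p = 0.019). All 7 polymerase and primase genes and all 6 MCM2-7 subunits had a fold change below 0, with medians of -1.50 and -1.19, while 4 of 6 clamp and loader genes and 3 of 4 strand binding and joining genes had one above 0. These signs are those of TMM-scaled counts, and with library size alone as the scale the all-gene median was -1.34 and not -0.28. Between 1 and 31 genes were called when 1 of the 4 libraries was left out (15.5% to 35.7% of all genes): 31 without MxCre 2 of the BM, all lower (19.8% of all genes lower). The median of the list was -2.14 without MxCre 2 and 0.33 without MxCre 1 of the BM.

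In S3 mice, BM CD11b+ cells against LSK cells showed 3 called genes, Timeless, Pole and Pola1, all lower (27.1% of all genes called, 12.7% lower), at a median log2 fold change of -0.51, and 11 at an unadjusted p under 0.05 (41.1% of all genes). The median was between -0.75 (without BM S3 540) and -0.25 (without BM S3 640) with 1 library left out. Without BM S3 640 edgeR called 7, of which 4 were higher (36.6% of all genes called), and without any of the other 5 libraries it called 2, both lower (at most 19.4% of all genes called). With the animal as a block 7 were called, all lower (16.2% of all genes lower). The block takes the libraries labelled 540 as 1 animal, which their Xist and Ddx3y counts go against. Spleen CD11b+ cells against LSK cells showed 5, Mcm6, Timeless, Rfc5, Pold1 and Pola1, all lower (27.4% of all genes called, 11.6% lower), at a median of -0.94, and 16 at an unadjusted p under 0.05 (40.2% of all genes). With the block 9 were called, all lower (14.7% of all genes lower). Timeless was at 108, 101 and 128 CPM in the S3 LSK libraries, 28.0, 15.4 and 31.6 in the BM and 14.9, 13.9 and 46.2 in the spleen CD11b+ libraries, a log2 fold change of -2.17 ± 0.54 from LSK to spleen (edgeR adjusted p = 0.0085). Pola1 was at 105, 89.1 and 101, 37.3, 30.0 and 21.1 and 19.3, 18.5 and 43.9 CPM. Both were lower in each CD11b+ library than in each LSK library. Tipin, the partner of Timeless, was not: it was at 57.5, 55.2 and 60.7 CPM in LSK and 121, 161 and 32.2 in BM CD11b+ libraries. Gins4 was at 33.0, 30.6 and 31.5, 58.2, 56.0 and 25.8 and 40.9, 41.7 and 32.1 CPM in the 3 fractions, and Pold1 at 212, 187 and 205, 127, 114 and 69.2 and 68.0, 75.4 and 94.2 CPM. Without S3 640 of the spleen edgeR called 22 genes lower than in LSK cells (15.5% of all genes lower), and it called 2 without any of the other 5 libraries (15.4% to 18.4% of all genes called). Spleen against BM CD11b+ cells gave none by edgeR, DESeq2 or limma-voom in S3 mice, with 1 at an unadjusted p under 0.05 (0.0563% of all genes called by edgeR and 9.77% under that p). In MxCre mice all 43 genes were below 0 with a median log2 fold change of -1.26, and edgeR and limma-voom called none, DESeq2 8, and 25 had an unadjusted p under 0.05. Every spleen library was lower than both BM libraries in 5 genes and higher in none (12.3% and 18.1% of all genes). Of all genes 0.915% were called by edgeR, 11.1% by DESeq2, and 19.8% had an unadjusted p under 0.05. This too was set by the BM MxCre libraries: without MxCre 1 of the BM the median was -2.02 and edgeR called 31, all lower (6.21% of all genes called), and without MxCre 2 of the BM it was 0.36 with 35 genes above 0 and none called.

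Other cell cycle genes were described by the same fits. Of 34 further replisome and origin genes, 1 was called in S3 against MxCre spleen cells (Pold2, an accessory subunit of polymerase delta), with 31 above 0 and a median of 0.98. None was called by edgeR in LSK or BM CD11b+ cells, where 0 and 2 had an unadjusted p under 0.05 (3.97% and 15.5% of all genes). The BM median of the 34 was 0.39, but -0.30 without MxCre 1 and 1.58 without MxCre 2 of the BM. The fit of the 5 LSK libraries compared called 16 of them, all higher, where 12.3% of all genes were called higher. Without either MxCre library that fit called none of the 34, and 3 or 8 of all 19555 genes in place of 4536. Of 30 G1/S regulators, 4 were called in the spleen, where 4.19% of all genes were called: Ccnd1 and Ccnd2, D-type cyclins that drive G1, were higher, and the CDK inhibitors Cdkn1a and Cdkn1b lower. Without 1 of the 5 spleen libraries at a time, edgeR called between 0 and 4 of the 30 and between 0 and 4 of the 34 (1.36% to 4.4% of all genes), with none of the 30 called without MxCre 2 or without S3 540. Pold2 was called in 1 of these 5 fits (without S3 815). Without the 3 libraries with both Xist and Ddx3y edgeR called 8 of the 30 and 11 of the 34 (5.58% of all genes), and without the 3 libraries with the fewest genes detected 4 and 2 (8.16% of all genes). Cdkn1a was at 216 and 321 CPM in the MxCre, 55.5 and 119 in the Ptpn11D61Y/+ and 56.9, 57.8 and 56.4 in the S3 spleen libraries, and Ccnd2 at 29.6 and 26.3 CPM in MxCre, 117 and 37.2 in Ptpn11D61Y/+ and 189.5, 127 and 137 in S3 libraries. Both separated S3 from MxCre without overlap, and animal 640 did not stand apart in either. In LSK cells Ccnd1 was at 26.9 and 27.5 CPM in MxCre, 36.8 and 39.0 in Ptpn11D61Y/+ and 93.2, 84.9 and 74.2 in S3 libraries.

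The 30 mitotic G2/M genes had S3 against MxCre medians of 0.54 (LSK), 0.36 (BM) and 1.51 (spleen), beside 0.34, 0.32 and 1.27 for the replication genes. EdgeR called none in the fit of all libraries, with an unadjusted p under 0.05 for 0, 0 and 16 of them (3.97%, 15.5% and 25.3% of all genes), and the fit of the 5 LSK libraries called 26, all higher, where 23.2% of all genes were called and 12.3% called higher, but none without either MxCre library. In the spleen edgeR called 12 of the 30 without the 3 libraries with both Xist and Ddx3y, where 5.58% of all genes were called. The summed CPM of the 2 lists did not keep a fixed ratio over the fractions. In the LSK MxCre libraries the replication genes summed to 4266 and 4704 CPM and the G2/M genes to 2332 and 2439. In the BM CD11b+ Ptpn11D61Y/+ libraries the replication genes summed to 5671 and 5019 CPM and the G2/M genes to 6773 and 5459. In the S3 spleen libraries the sums were 2178, 2183 and 4472 CPM for the replication genes and 1374, 1239 and 4055 for the G2/M genes, animal 640 last. The replication genes were thus the larger sum in LSK and the G2/M genes in BM CD11b+ control cells, apart from MxCre 1. This is a difference of levels, and it was not tested.

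**Figure D5:**
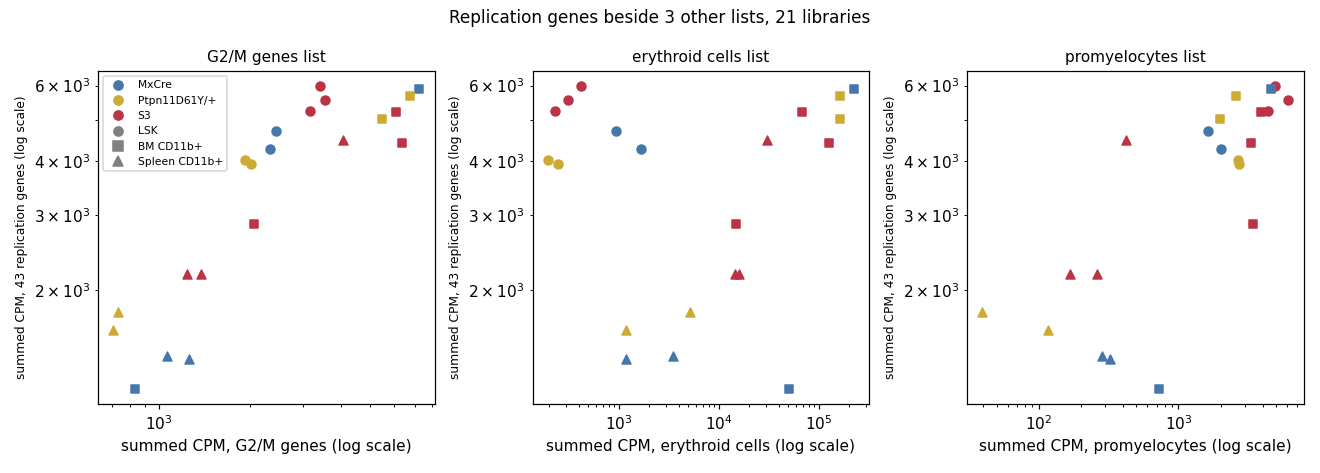
Summed CPM of the 43 replication genes (y axes, log scale) against the summed CPM of the G2/M, erythroid and promyelocyte lists (x axes, log scale) in the 21 libraries, coloured by genotype and shaped by fraction. LSK libraries lie to the left of the upper BM CD11b+ libraries in the G2/M and erythroid panels, and BM CD11b+ MxCre 1 is the lowest point of each panel.

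Over the 14 CD11b+ libraries, the 8 genes outside the 43 whose log2 CPM followed their mean most closely, of 8564 genes ranked, were genes of chromosome structure, the spindle or origin firing. Top2a, which untangles DNA, had a Pearson r of 0.990, the spindle gene Aspm 0.988, the condensin gene Smc2 0.986, and the kinesins Kif2c, Kif11 and Kif4 0.983, 0.983 and 0.981. Tpx2 had 0.982 and Dbf4, which activates the origin kinase Cdc7, 0.980. These libraries share animals, the enrichment step and differences in cell content, so the values describe likeness only. Top2a was at 59.4 and 65.7 CPM in the spleen MxCre libraries and 142, 93.3 and 366 in S3, with animal 640 again the highest.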

How the data were processed

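Gene counts of 21 mRNA libraries (3 fractions, 3 genotypes) were used as deposited. Per the labels and the methods of the study, the authors made TruSeq Stranded mRNA libraries, sequenced read pairs, trimmed them with Trim Galore 0.6.5 and aligned them with STAR 2.5.3a to GRCm38/mm10. The counting program, its annotation and its use of strand are not given in the sources used here. The deposited values are whole, unnormalized counts per Ensembl gene, with total counts of 34992610 to 104509425 per library, and gene symbols and exon lengths came from the reference annotation of the same build.

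Genes with low counts were removed by filterByExpr over the 9 groups (minimum count 10, minimum total 15), which kept 99.9875% of counts. Counts were scaled by TMM and fitted in 1 robust quasi-likelihood model of all libraries in edgeR 4.0.16 (R 4.3.3) with 12 residual degrees of freedom and no covariate. P-values were adjusted by Benjamini-Hochberg over all 19555 genes, at a threshold of 0.05 (two-sided). Log2 CPM used a prior count of 2. The edgeR test was run on simulated counts with changes in the spleen S3 group larger than any LSK change described here. The simulation held no outlying libraries, so it does not bear on small changes or on groups whose libraries lie far apart. DESeq2 1.42.0, limma-voom (limma 3.58.1), other scalings, no filter, only the groups compared, pooled controls, the animal as a block and libraries left out were alternatives. The fits without the libraries with both Xist and Ddx3y, and the alternatives within the fits of LSK groups alone, were added after seeing the data.

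Genes were named by role: the one with the highest level per exon length of each role, those called between S3 and a control, and the 3 largest and 3 smallest changes in each fraction. Other named genes are examples of their roles or lists chosen after their values were seen. The members and lists were chosen with earlier results of these data known. S3 animals were shared between fractions by their labels, and the deviations of their libraries from group means correlated at r = 0.108, 0.407 and 0.333 between BM and spleen CD11b+ cells (animals 540, 815 and 640, across genes) and between -0.096 and 0.086 with LSK cells.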

Additional observations from a re-analysis of the deposited data

Results flagged for a closer look

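Chaf1b, a subunit of the chromatin assembly factor, had log2 fold changes on opposite sides of 0 in S3 against MxCre mice in LSK and spleen CD11b+ cells, and edgeR called it in neither (adjusted p = 1 and 0.29 in the fit of all 21 libraries, and 0.15 in the fit of the 5 LSK libraries). The log2 fold change was -0.18 in LSK cells, where each of the 3 S3 libraries was lower than both MxCre libraries, and 0.89 in spleen CD11b+ cells, where each S3 library was higher than both. Its spleen values were 11.1 and 17.6 CPM in MxCre and 18.2, 17.8 and 43.5 in S3 animals 540, 815 and 640, so that 2 S3 libraries lay just above MxCre 2 and animal 640 far above it. The test of the difference itself did not pass (1.07 ± 0.72, SE, edgeR adjusted p = 0.51).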

How the results depend on the processing

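Counts below are of the 43 genes called at an adjusted p under 0.05, and medians are of their log2 fold changes, and a percentage beside a count is the share of all genes called under the same alternative. Where a count of a tool or alternative stands without its own share, here or above, it is not read against all genes. Under the alternatives 63 counts moved by over 1.5 times and 208 did not, 41 medians moved by more than the spread between replicates and 230 did not, and of the values of called single genes 391 kept their direction and side of the threshold, 112 no longer passed and 4 reversed. Those 4 were of Rrm2 (-0.045) and Gmnn (-0.093) in BM CD11b+ against LSK MxCre cells, each without BM MxCre 2 and without the 3 libraries with both Xist and Ddx3y, which include it. Without BM MxCre 1 they were 3.15 and 2.65. Dropping the filter on low counts moved none of the counts or medians. In LSK cells, S3 against MxCre gave 22 (23.2%) in the fit of only the groups compared, and medians of 0.24 (RLE), 0.25 (library size alone) and 0.24 (DESeq2). Its fit of LSK groups alone had a median of 0.25 with library size alone. S3 against Ptpn11D61Y/+ LSK cells gave 37 (26.4%) with only the groups compared, and medians of 0.40 (RLE), 0.43 (library size), 0.43 (only the groups compared) and 0.40 (DESeq2), and Ptpn11D61Y/+ against MxCre gave 1 (13.3%) with only the groups compared. In the BM, S3 against MxCre gave 13 (5.73%) and a median of 1.91, and Ptpn11D61Y/+ against MxCre 35 (12.7%) and 2.37, without the Xist and Ddx3y libraries. In the spleen, S3 against MxCre gave 3 (4.69%) and a median of 1.77 with library size alone, 0 with only the groups compared, 0 with pooled controls, 0 with limma-voom, 15 (18.7%) with DESeq2, 5 (8.16%) without the 3 libraries with the fewest genes detected and 13 (5.58%) without the Xist and Ddx3y libraries. Ptpn11D61Y/+ against MxCre in the spleen gave 1 with each of library size alone (8.73%, median 0.99), only the groups compared (5.4%), DESeq2 (18.1%) and the libraries with the fewest genes left out (10.9%).

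Between fractions of MxCre mice, BM CD11b+ against LSK gave 19 (46.0%) with library size alone, 0 with only the groups compared, 11 (40.4%) with limma-voom, 11 (46.9%) with DESeq2 and 29 (32.8%, median -2.14) without the Xist and Ddx3y libraries. Spleen against LSK gave 40 (50.1%) with library size alone, and medians of -1.90 (RLE), -2.90 (library size), -2.07 (only the groups compared), -1.90 (DESeq2) and -1.87 (without the libraries with the fewest genes). Spleen against BM gave 8 (11.1%) with DESeq2, 17 (7.31%) without the libraries with the fewest genes, and a median of 0.36 without the Xist and Ddx3y libraries. In S3 mice, BM CD11b+ against LSK gave 11 (29.4%, median -1.18) with library size alone, 7 (17.6%) with only the groups compared, 6 (31.4%) with limma-voom, 6 (38.7%) with DESeq2, 7 (30.8%) without the libraries with the fewest genes and 11 (22.0%) without the Xist and Ddx3y libraries. Spleen against LSK gave 8 (27.8%) with RLE, 21 (30.2%, median -1.47) with library size alone, 8 (27.6%) with only the groups compared, 17 (32.7%) with limma-voom and 15 (38.1%) with DESeq2. Of the differences of S3 against MxCre between fractions, spleen minus LSK had a median of 1.47 with library size alone, BM minus LSK 1.54 without the Xist and Ddx3y libraries, and spleen minus BM -0.47 without these and 1 called (1.25%) without the libraries with the fewest genes. Scaling by library size alone also shifted the median of all genes, from 0.32 to 0.77 for S3 against MxCre in the spleen, from 0.18 to 0.55 in the BM, and from -0.34 to -1.49 for spleen against LSK in MxCre mice. The cause of these shifts was not tested.

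With the replicate block, S3 fractions gave 7 (29.2%, BM against LSK) and 9 (28.5%, spleen against LSK), and MxCre fractions 11 (36.3%) and 22 (40.8%). The block takes the libraries labelled 540 as 1 animal, and it was not run without them. Same-numbered MxCre libraries share only a number, and their deviations correlated between -0.035 and 0.059 across genes. The block changed the count of called genes by over 1.5 times in no other comparison. S3 and control libraries of a fraction share no numbers, so no paired analysis of S3 against control within a fraction was possible. The block was not run for the differences of S3 against MxCre between fractions.

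Leaving out 1 library at a time gave 0 to 29 called (0.0% to 10.1% of all genes in these fits) and medians of -0.41 to 2.15 for S3 against MxCre in the BM, 0 to 1 (1.36% to 4.4%) and 0.80 to 1.48 in the spleen, and in the fit of LSK groups alone 0 to 22 (0.0153% to 28.4%) and 0.24 to 0.38. S3 against Ptpn11D61Y/+ had medians of 0.47 to 0.56 in LSK cells, 0.37 to 0.94 in the spleen, and 0 to 36 called (0.0153% to 29.4%, medians of 0.40 to 0.52) in the fit of LSK groups alone. Ptpn11D61Y/+ against MxCre had medians of -0.21 to -0.085 in LSK cells, 0 to 36 called (0.0% to 14.8%) and -0.10 to 2.37 in the BM, and 0.22 to 0.42 in the spleen. In MxCre mice the ranges were 1 to 31 (15.5% to 35.7%) and -2.14 to 0.33 (BM against LSK), 9 to 17 (21.7% to 31.2%) and -1.90 to -1.70 (spleen against LSK), and 0 to 31 (0.00511% to 6.21%) and -2.02 to 0.36 (spleen against BM). In S3 mice they were 2 to 7 (at most 36.6%) and -0.75 to -0.25 (BM against LSK), and 2 to 22 (15.4% to 34.1%) and -1.49 to -0.71 (spleen against LSK). The differences between fractions ranged from 0.51 to 1.10 (spleen minus LSK), 0 to 1 called (0.0% to 2.4%) and -0.74 to 1.79 (BM minus LSK), and -0.91 to 1.75 (spleen minus BM). With 2 control libraries a group, and a lone library assumed to vary like the others where 1 was left out, the counts rest on few degrees of freedom. Fen1, at 0 to 697 counts, had the lowest level per length of the list, and a count of 0 does not show that it is absent.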

Other observations

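In LSK cells, the fit of the 5 libraries compared called 15 of 30 G1/S regulators between S3 and MxCre mice, 11 higher and 4 lower, where 23.2% of all genes were called. In the fit of all 21 libraries edgeR called none, with 1 at an unadjusted p under 0.05. Without either MxCre library the fit of the LSK libraries called none of the 30, and 3 or 8 of all 19555 genes in place of 4536. A pair of the CDK inhibitors among the 4 lower genes is described here, chosen after their values were seen. Cdkn1c, a CDK inhibitor tied to stem cell quiescence, was at 5.46 and 4.48 CPM in MxCre, 10.7 and 9.98 in Ptpn11D61Y/+ and 2.10, 1.39 and 0.919 in S3 libraries (animals 540, 815 and 768), so that the S3 values were lowest and the Ptpn11D61Y/+ values highest. The log2 fold change against MxCre was -1.76 ± 0.35 (SE, edgeR adjusted p = 0.016 in that fit, 0.13 and 0.091 there without MxCre 1 and without MxCre 2, and 1 in the fit of all 21 libraries). Cdkn1a, the inhibitor p21, was at 36.2 and 35.7 CPM in MxCre, 19.3 and 15.1 in Ptpn11D61Y/+ and 17.1, 24.7 and 15.7 in S3 libraries, and was thus lower than MxCre in both other genotypes, with S3 and Ptpn11D61Y/+ overlapping. Its log2 fold change in S3 against MxCre was -0.91 ± 0.20 (SE, edgeR adjusted p = 0.028 in that fit, 0.17 and 0.15 there without MxCre 1 and without MxCre 2, and 1 in the fit of all 21 libraries).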
